A study of Homo sapiens with 2 samples.

Results

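The 10 genes described here encode subunits of the transcription factor AP-1 and products of the immediate early response, and they were taken by symbol from the 58302 gene rows of the count tables. They are the FOS genes FOS, FOSB, FOSL1 and FOSL2, the JUN genes JUN, JUNB and JUND, and the genes ATF3, EGR1 and IER3, and each symbol matched 1 Ensembl identifier in both libraries. AP-1 is a dimer of basic leucine zipper (bZIP) proteins. JUN proteins can pair with each other or with FOS proteins, whereas FOS proteins do not readily pair with each other, so the make-up of the transcript pool bears on which dimers can form. Immediate early genes are transcribed within minutes of a growth factor or stress signal without new protein synthesis. The classical ones, FOS and EGR1, then fall back within hours, while FOSL1, FOSL2 and JUND transcripts persist longer. In tubule cells of the kidney these genes are known to respond to serum, wounding and injury.

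The cells were HK-2, an immortalised epithelial line of the human renal proximal tubule, at passages 7 to 11, grown with 10% fetal bovine serum. One culture was infected for 24 h with an adenovirus that carried green fluorescent protein (the library labelled Ad-GFP). The other was infected for 24 h with an adenovirus that carried the coding sequence of Bmal1, the partner of CLOCK in the circadian clock (the library labelled Ad-Bmal1). Both groups were thus infected, serum-fed cells, and no uninfected culture and no cisplatin-treated culture was among the samples analysed here. Each group had 1 library, and the differences given are therefore between 2 libraries, with no replicate to set them against and no statement about the conditions.

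The libraries held 20032652 (Ad-GFP) and 20051735 (Ad-Bmal1) counts, and 1 CPM (scaled counts) stood for 20.3 and 19.8 raw counts. BMAL1 itself, which the vector was meant to raise, was counted 204 times in the library labelled Ad-GFP, against 133 in that labelled Ad-Bmal1, a ratio of 0.667 (95% counting interval 0.532 to 0.834), which is the reverse of the label, and this limit holds for all directions given here. Counts per gene do not separate vector transcripts from those of the gene of the cell. The labels spell out the line as human kidney 2 for one library and human kidney 3 for the other. Of 15 markers of proximal tubule epithelium 9 reached 1 CPM, and the sums of all were 3972 CPM (Ad-GFP) and 3713 CPM (Ad-Bmal1). Most of this was VIM (1040 and 784 CPM) and the keratin genes KRT8 (1022 and 974) and KRT19 (776 and 708). VIM also stands among the AP-1 targets below, and the sum by itself is no check of the tubule. The apical receptor gene LRP2 was at 0 in both and CDH1, AQP1 and SLC34A1 had 5 or fewer counts in each. CUBN, with 8 and 2 counts, and ANPEP, with 19 and 7, were also below 1 CPM. Of 24 markers of other cell types 10 were at 0 in both libraries, among them PTPRC of blood cells and VWF of endothelium. Of these markers 5 reached 1 CPM, and the sum of all was 80.4 CPM in the library labelled Ad-GFP, against 111 in the other. Most of it was COL1A1, from the fibroblast markers, at 63.4 and 84.8 CPM. The others of that group did not follow it: COL1A2 had 4 and 1 counts and PDGFRB 16 and 20. DCN had a ratio of 0.716 (0.542 to 0.943) and LUM 1.17 (0.945 to 1.44). The hepatocyte gene ALB, which encodes albumin, met the size rule given below, with 9 counts against 165 (a ratio of 18.8, 9.64 to 41.8). The other hepatocyte markers stood at 0 in the library labelled Ad-GFP, against 15 counts of APOA1, 9 of TTR and 4 of APOB in the library labelled Ad-Bmal1. The part of these markers in the values below was not tested.

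The FOS and JUN pools of both libraries were made up of FOSL2, JUN, JUNB, FOSL1 and JUND, while FOS and EGR1 were near the limit of detection. Between the libraries JUNB stood lower in the one labelled Ad-Bmal1, at a ratio of 0.637 (0.608 to 0.668). IER3, FOSB and ATF3 stood higher, at 1.28 (1.25 to 1.32), 1.36 (1.20 to 1.54) and 1.31 (1.12 to 1.55). FOSL2 and JUN were near 1, at 1.03 and 0.974.

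**Figure D1:**
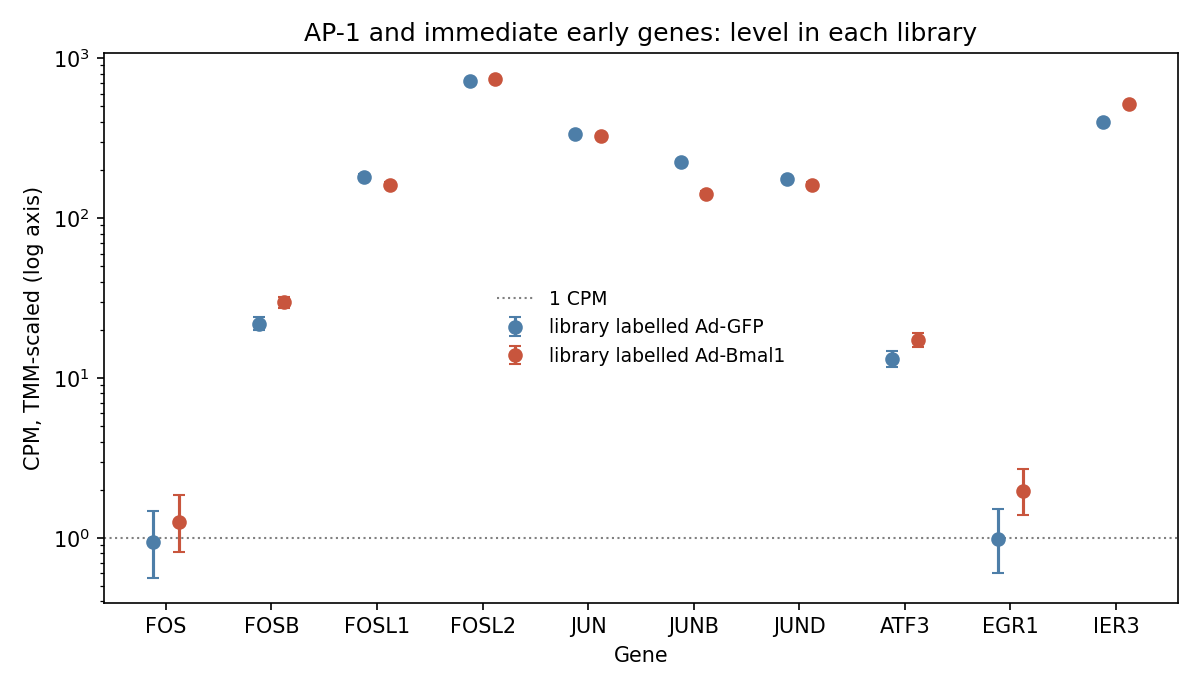
Scaled level of each gene in CPM (log axis) in the library labelled Ad-GFP and the library labelled Ad-Bmal1, with exact 95% Poisson intervals as bars that cover counting error only. CPM is not corrected for transcript length. FOSL2 has 719 and 740 CPM, and FOS and EGR1 lie near the dotted line at 1 CPM.

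Among the FOS genes, FOSL2, which encodes the subunit FRA-2, held the most counts. It was counted 14582 times in the library labelled Ad-GFP, against 14655 in that labelled Ad-Bmal1, or 719 and 740 CPM. The ratio was 1.03 (1.005 to 1.05), a near-equal level in both. FOSL2 lies on chromosome 2 (28392448 to 28417312, plus strand, GENCODE v29 on GRCh38, the build of every gene position here). Its direction depended on the processing: under plain library totals the ratio was 1.004 (0.981 to 1.03), and with a trend of the ratio on transcript length removed it was 0.942 (0.920 to 0.964), on the other side of 1.

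FOSL1 encodes FRA-1, the FOS protein best known from migrating and RAS-driven epithelial cells (chromosome 11, 65892049 to 65900573, minus strand). It was counted 3682 times in the library labelled Ad-GFP, against 3207 in that labelled Ad-Bmal1, or 182 and 162 CPM. The lower value in the library labelled Ad-Bmal1 gave a ratio of 0.891 (0.850 to 0.935).

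FOSB encodes a FOS protein whose shortened splice form, delta-FosB, is long-lived (chromosome 19, 45467995 to 45475179, plus strand). It was counted 443 times in the library labelled Ad-GFP, against 590 in that labelled Ad-Bmal1, or 21.9 and 29.8 CPM, the reverse order to FOSL1. The counts per gene do not separate its splice forms. The gene lies within the span of ERCC1, a DNA repair gene on the opposite strand, but shares 0 annotated exon bases with it, and ERCC1 had 1285 and 1114 counts with a ratio of 0.887 (0.818 to 0.962).

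FOS, the founding member and a classical serum-response gene, was close to undetected (chromosome 14, 75278774 to 75282230, plus strand). It was counted 19 times in the library labelled Ad-GFP, against 25 in that labelled Ad-Bmal1, or 0.937 and 1.26 CPM. The ratio of 1.35 had an interval of 0.712 to 2.59, so a difference was not detectable at this depth.

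The FOS pool was therefore FOSL2 and FOSL1 with a small part of FOSB. FOSL2 held 77.9% of the counts of the 4 genes in the library labelled Ad-GFP (exact Clopper-Pearson 95% interval 77.3 to 78.5), against 79.3% in the other (78.7 to 79.9). FOSL1 held 19.7% (19.1 to 20.2) and 17.4% (16.8 to 17.9). FOSB held 2.37% (2.15 to 2.59) and 3.19% (2.94 to 3.46), and FOS held 0.101% (0.0611 to 0.158) and 0.135% (0.0876 to 0.200). Shares within a library do not depend on the scaling between libraries, and for FOSB, FOSL1 and FOSL2 the intervals of the libraries did not overlap. A trend of the ratio on transcript length does bear on them. With it removed the ratios of FOSL1 and FOSL2 were alike, at 0.949 (0.905 to 0.995) and 0.942 (0.920 to 0.964).

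Counted per kilobase of the longest annotated coding transcript, which corrects for the long FOSL2 message, FOSL1 and FOSL2 held similar parts. FOSL1 then held 49.0% of the FOS pool in the library labelled Ad-GFP, against 45.0% in the library labelled Ad-Bmal1. FOSL2 held 48.2% and 51.1%. This rests on the transcript assumed, since by the shortest coding transcript FOSL2 stood at 809 CPM per kilobase against 311 for FOSL1 (Ad-GFP) and at 832 against 277 (Ad-Bmal1). The ratio of FOSB to FOSL1 counts was 0.120 in the library labelled Ad-GFP, against 0.184 in the other. The odds ratio was 1.53 (exact 95% interval 1.34 to 1.75). Among the 6 pairs of FOS genes, it was the largest of those with an interval that excluded 1. The pairs with FOS itself all had intervals that included 1. The summed FOS pool itself was alike in size, with 18726 and 18477 counts and a ratio of 1.01 (0.989 to 1.03).

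**Figure D2:**
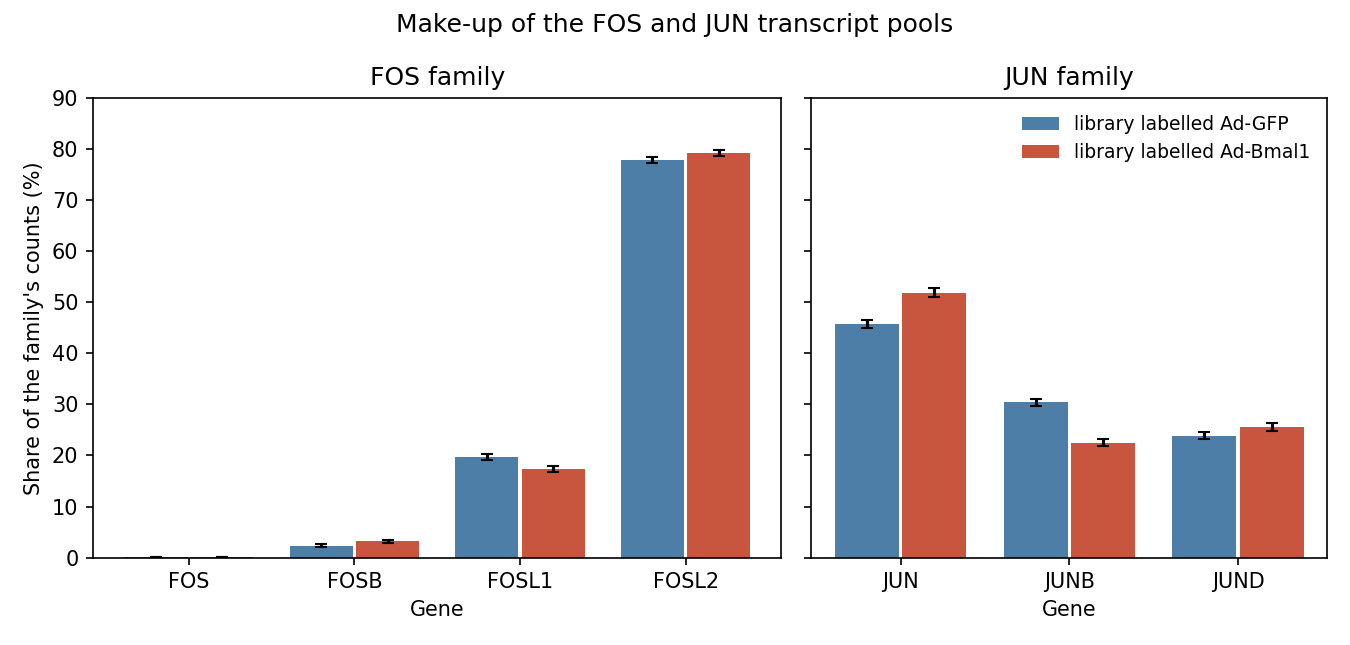
Share of the counts of the 4 FOS genes (left) and the 3 JUN genes (right) held by each gene, in percent, in each library, with exact 95% binomial intervals as bars. FOSL2 holds 77.9% and 79.3% of the FOS pool, and JUNB holds 30.4% and 22.5% of the JUN pool.

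Among the JUN genes, JUNB set the libraries apart. JUNB encodes a subunit that activates transcription more weakly than JUN at many sites and can restrain it (chromosome 19, 12791496 to 12793315, plus strand). It was counted 4517 times in the library labelled Ad-GFP, against 2813 in that labelled Ad-Bmal1, or 223 and 142 CPM, which is 1.57-fold lower (1.497 to 1.65). Under the 4 other scalings and thinning, which could hardly turn a direction, the ratios were 0.622 to 0.637. With the length trend removed the ratio was 0.675.

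JUNB lies within the span of HOOK2, a gene on the opposite strand, and shares 259 of its 1820 exon bases with annotated HOOK2 exons. HOOK2 had 742 and 636 counts, a ratio of 0.877 (0.788 to 0.976). The strand setting of the counting is unstated in the labels, so reads in the shared bases cannot be assigned. Among 1728 measured genes with between 0.5 and 2 times the summed counts of JUNB, 19 (1.10%) had a ratio as low as that of JUNB or lower, and 53 (3.07%) lay as far from 1 in either direction.

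JUN, the partner gene whose product is phosphorylated by JNK kinases, was at a like level in both libraries (chromosome 1, 58780788 to 58784327, minus strand). It was counted 6800 times in the library labelled Ad-GFP, against 6472 in that labelled Ad-Bmal1, or 335 and 327 CPM. The ratio was 0.974 (0.941 to 1.01) and its interval included 1, but it was 0.951 (0.919 to 0.984) under library totals.

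JUND, a JUN gene that is broadly expressed in resting cells, was slightly lower in the library labelled Ad-Bmal1 (chromosome 19, 18279760 to 18281622, minus strand). It was counted 3550 times in the library labelled Ad-GFP, against 3197 in that labelled Ad-Bmal1, or 175 and 161 CPM, a ratio of 0.921 (0.878 to 0.967). With the length trend removed it was 0.976 (0.930 to 1.02), an interval that included 1.

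The make-up of the JUN pool differed between the libraries beyond counting error. JUNB held 30.4% of its counts in the library labelled Ad-GFP (29.6 to 31.1), against 22.5% in the library labelled Ad-Bmal1 (21.8 to 23.3). JUN held 45.7% (44.9 to 46.5) and 51.9% (51.0 to 52.7), and JUND 23.9% (23.2 to 24.6) and 25.6% (24.8 to 26.4). The count ratio of JUNB to JUND turned from 1.27 to 0.880, an odds ratio of 0.691 (0.646 to 0.740), while JUN to JUND had an odds ratio of 1.06 whose interval, 0.996 to 1.12, included 1. Per kilobase, JUNB held 39.3% and 30.4% of the pool.

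The summed JUN pool was counted 14867 times in the library labelled Ad-GFP, against 12482 in that labelled Ad-Bmal1, a ratio of 0.859 (0.839 to 0.880). Without JUNB, the sum of JUN and JUND had a ratio of 0.956 (0.930 to 0.983). The count ratio of the FOS pool to the JUN pool was 1.26 in the library labelled Ad-GFP, against 1.48 in the other. The odds ratio was 1.18 (1.14 to 1.21). These ratios are not per transcript length and FOSL2 has a long message, so they do not say which pool was larger. With the length trend removed the summed ratios lay closer, at 0.953 for FOS and 0.880 for JUN.

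ATF3 encodes a bZIP factor that pairs with JUN proteins and is induced by many stresses (chromosome 1, 212565334 to 212620777, plus strand). It was counted 267 times in the library labelled Ad-GFP, against 343 in that labelled Ad-Bmal1, or 13.2 and 17.3 CPM. Its ratio of 1.31 (1.12 to 1.55) was in the same direction as that of FOSB. Of 3727 measured genes with between 0.5 and 2 times its summed counts, 9.04% had a ratio as high or higher and 19.0% lay as far from 1 in either direction.

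IER3 encodes a small protein that modulates cell survival and NF-kB and ERK signalling (chromosome 6, 30743199 to 30744554, minus strand). It was counted 8139 times in the library labelled Ad-GFP, against 10221 in that labelled Ad-Bmal1, or 401 and 516 CPM, a ratio of 1.28 (1.25 to 1.32). With the length trend removed the ratio was 1.37 (1.33 to 1.41), above that counting interval. IER3 shares 359 exon bases with the antisense gene IER3-AS1, which had 0 and 3 counts. Of 663 measured genes of like count 9.65% had a ratio as high or higher, and 14.3% were as far from 1 either way.

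EGR1 encodes a zinc finger factor that is a standard marker of ERK signalling and binds GC-rich sites (chromosome 5, 138465490 to 138469315, plus strand). It was counted 20 times in the library labelled Ad-GFP, against 39 in that labelled Ad-Bmal1, or 0.987 and 1.97 CPM. Its ratio of 1.995 (1.14 to 3.61) lay just short of 2-fold, and at 2.001 with the length trend removed it lay just past it. FOS and EGR1 reached 1 CPM only in the library labelled Ad-Bmal1. Of 2299 measured genes of like count 4.31% had a ratio as high or higher, and 11.5% were as far from 1 either way. The lowest counts of this set, like EGR1, pass the filter only through their higher library. The set is thus picked in part for difference, and these shares cannot place EGR1.

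**Figure D3:**
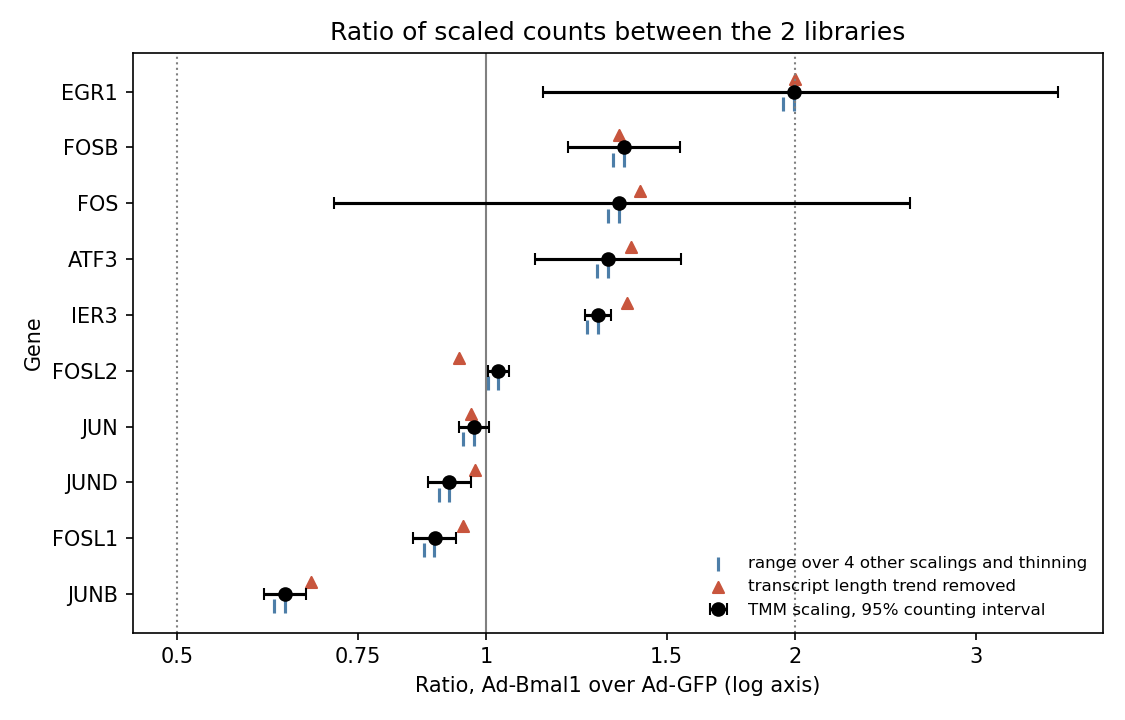
Ratio of scaled counts, Ad-Bmal1 over Ad-GFP (log axis), for each gene, with the 95% counting interval as bars, the range over 4 other scalings and thinning as blue ticks and the value with the length trend removed as triangles. JUNB at 0.637 lies apart below 1, FOSL2 changes side once the length trend is removed, and the intervals of FOS and EGR1 are wide.

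Levels of different genes can be compared only per transcript length, here as CPM per kilobase of the longest annotated coding transcript. In the library labelled Ad-GFP, IER3 was highest at 297, followed by JUNB at 122, FOSL1 at 109, FOSL2 at 107, JUN at 94.8 and JUND at 94.0. A gap followed to ATF3 at 6.48 and FOSB at 5.79, and another to FOS at 0.434 and EGR1 at 0.314. The counting intervals of neighbours overlapped for FOSL1 and FOSL2, JUN and JUND, ATF3 and FOSB, and FOS and EGR1.

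In the library labelled Ad-Bmal1 the order was IER3 at 382, FOSL2 at 110, FOSL1 at 97.0, JUN at 92.3, JUND at 86.6 and JUNB at 78.0. JUNB, the second in the library labelled Ad-GFP, was thus the sixth. Below these lay ATF3 at 8.52, FOSB at 7.89, EGR1 at 0.627 and FOS at 0.585, and the intervals of neighbours overlapped for FOSL1 and JUN, ATF3 and FOSB, and EGR1 and FOS. The order rests on the transcript assumed: by the shortest annotated coding transcript FOSL2 ranked highest in both libraries, and JUNB was 5th in the library labelled Ad-GFP and 6th in the other.

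Promoter sequence is shown for JUNB, which differed most among the members with 1000 or more counts, for its relative JUND, which differed little, and for EGR1, which was near the limit of detection. Each run is the 250 bases before the RefSeq start (GRCh38.p14), 5′ to 3′ on the strand of the gene, and capitals mark matches to the motifs searched.
JUNB (chr19:12791236-12791485, plus strand): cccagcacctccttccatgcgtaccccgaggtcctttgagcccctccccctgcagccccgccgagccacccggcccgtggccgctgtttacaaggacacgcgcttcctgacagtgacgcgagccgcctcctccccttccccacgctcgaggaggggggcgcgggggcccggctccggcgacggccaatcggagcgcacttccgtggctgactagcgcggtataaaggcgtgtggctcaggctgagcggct
JUND (chr19:18281623-18281872, minus strand): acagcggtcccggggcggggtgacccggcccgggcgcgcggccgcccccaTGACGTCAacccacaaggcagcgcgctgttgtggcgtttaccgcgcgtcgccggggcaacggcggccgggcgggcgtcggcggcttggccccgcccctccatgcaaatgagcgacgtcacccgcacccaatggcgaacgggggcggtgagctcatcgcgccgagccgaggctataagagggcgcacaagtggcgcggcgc
EGR1 (chr5:138465229-138465478, plus strand): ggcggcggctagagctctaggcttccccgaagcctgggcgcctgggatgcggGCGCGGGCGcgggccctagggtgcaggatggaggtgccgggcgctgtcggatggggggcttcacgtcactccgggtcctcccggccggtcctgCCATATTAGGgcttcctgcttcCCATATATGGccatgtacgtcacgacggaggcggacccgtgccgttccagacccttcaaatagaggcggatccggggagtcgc

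In the EGR1 window the capitals mark 1 EGR site and 2 CArG boxes, the element bound by serum response factor, and in the JUND window they mark a cyclic AMP response element. No base of the JUNB window matched. The motifs, searched on both strands, were the cyclic AMP response element TGACGTCA, the AP-1 site TGAGTCA, the E-box CACGTG that CLOCK and BMAL1 bind, the EGR site GCGNGGGCG and the CArG box by its usual definition. None of these motifs contains another. The RefSeq table held 8 of the 10 genes, with 9 windows, and not FOSL1 or IER3.

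No E-box and no AP-1 site of this spelling lay in the windows of the 7 genes other than JUN. Over all 35116 windows of the same length, 6.34% held the E-box, 4.20% the AP-1 site, 1.65% the cyclic AMP response element, 8.41% the EGR site and 1.16% the CArG box. The other windows, those of FOS, FOSB, FOSL2 and ATF3, held no match to any motif searched. In FOS, FOSL2 and the first of the 2 ATF3 windows, 196, 194 and 177 bases lay before the first annotated exon base within the window. The FOSL2 window (from 28392608) and the second ATF3 window (from 212614768) began inside the annotated spans of their genes. Neither thus lies upstream of the whole gene. The JUN window lay wholly within annotated exon bases and says nothing of its promoter. A missing match says only that these letters are not in the window.

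Across the table, genes that reached 1 CPM in either library counted as measured, as 13231 did, with the size rule met by those that also differed by at least 2-fold with an interval that excluded 1. None of the 10 genes met the size rule in either direction, where 1.13% of measured genes met it as higher and 1.74% as lower. Intervals of 5 genes lay above 1, those of FOSB, FOSL2, ATF3, EGR1 and IER3, and those of 3 lay below, FOSL1, JUNB and JUND, against 23.8% and 21.6% of all measured genes. With the length trend removed the interval of FOSL2 lay below 1 and that of JUND included it. The split also depended on the scaling. Under library totals and under DESeq2 size factors 4 lay above and 4 below, since FOSL2 then included 1 and JUN lay below it. Of all measured genes 3143 lay above 1 and 2858 below, but 2692 and 3371 under library totals. EGR1 was measured only through the library labelled Ad-Bmal1, where it was higher.

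Narrow intervals come with high counts, and 7 of the 10 genes had 1000 or more counts over both libraries. Of these 7, 3 had intervals above 1 and 3 below (42.9% each), against 37.2% and 27.6% of the 5658 measured genes as deep. A difference of 1.5-fold or more was rarer at that depth, with 1.43% of such genes lower by it, JUNB among them, and 2.33% higher. With the length trend removed JUNB, at 0.675, fell just short of 1.5-fold. At 1.5-fold without the depth limit, JUNB (lower) and EGR1 (higher) were the 2 of the 10 genes past it, against 4.9% of all measured genes lower and 4.41% higher. For EGR1 this rests on a filter passed only in the library where it was higher. The median log2 ratio was 0.20 over the 10 genes, but 0.0010 over the 8 that reached 1 CPM in both libraries, where the median of all measured genes was 0.0031. The 10 genes thus did not share a direction.

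**Figure D4:**
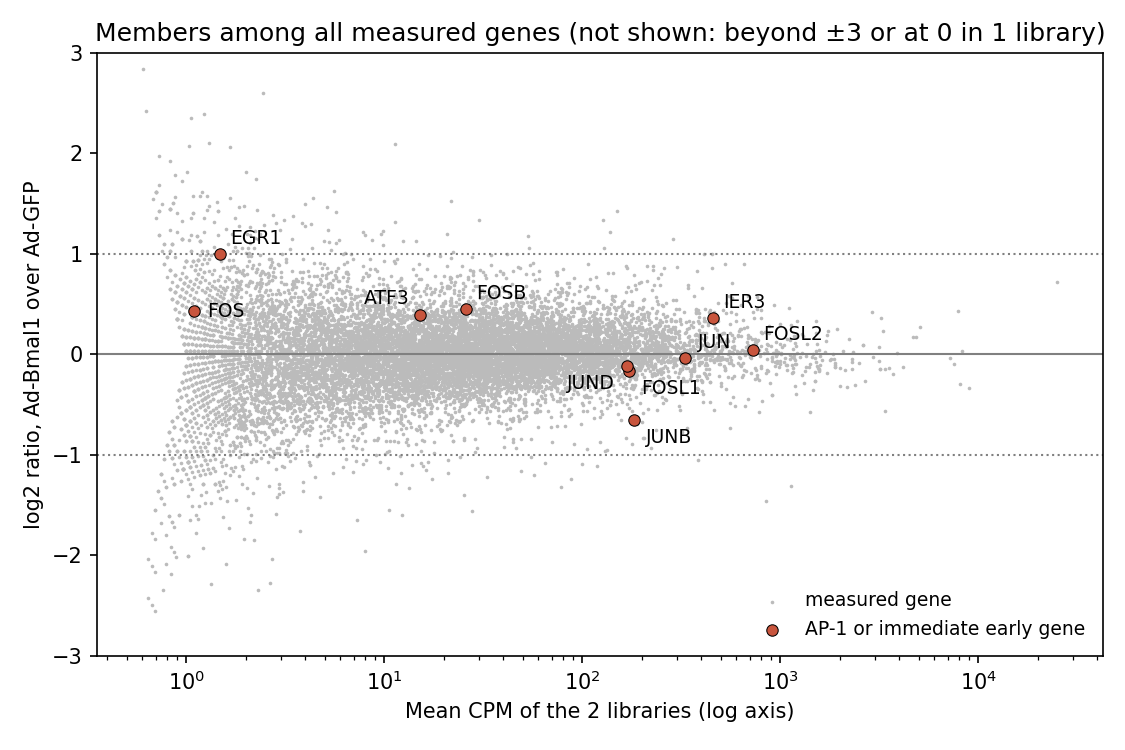
Log2 ratio, Ad-Bmal1 over Ad-GFP, against the mean CPM of the libraries (log axis) for measured genes in grey and the AP-1 and immediate early genes in red, with dotted lines at a 2-fold difference. JUNB at -0.65 lies at the lower edge of genes of like level, while FOSL2, JUN, JUND and FOSL1 lie in the dense band.

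Other immediate early genes had more intervals below 1 than above. Like the lists that follow, this one was drawn up with earlier results of these data known, so its shares are description only. Of 34 listed 29 were measured, 13 had intervals below 1 (44.8%) and 3 above (10.3%), none met the size rule, and the median log2 ratio was -0.06. Over the 19 with 1000 or more counts, 11 had intervals below 1 (57.9%), where 27.6% of all genes as deep did. The highest counts were those of CCN1, a matricellular protein gene, with 28616 and 32388 counts and a ratio of 1.16 (1.14 to 1.18), and MYC, the growth-promoting transcription factor gene, at 1.06 (1.03 to 1.097). MCL1, an anti-apoptotic gene, had a ratio of 0.957 (0.919 to 0.996) and PHLDA1 one of 0.758 (0.727 to 0.790).

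Further values, chosen after they were seen, show the spread of this list. KLF2, a zinc finger factor gene, had 339 and 185 counts (ratio 0.558, 0.464 to 0.670), and SIK1, a salt-inducible kinase gene, had 261 and 504 (1.98, 1.70 to 2.30), so both were within 2-fold. SGK1, a kinase gene of sodium transport, had a ratio of 0.675 (0.644 to 0.708) and GADD45B, a stress sensor gene, one of 0.672 (0.614 to 0.734). EGR2, a relative of EGR1, had 432 and 471 counts, with an interval of 0.977 to 1.27 that included 1.

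The other bZIP factors, which can pair with JUN or FOS proteins or share their sites, had more intervals above 1 than below. Of 20 listed 17 were measured, with 7 intervals above 1 (41.2%), 3 below (17.6%), none past the size rule and a median of 0.12. At 1000 or more counts the split was even, with 3 of 8 each way (37.5%), where 37.2% of all genes as deep lay above and 27.6% below. The highest counts were those of ATF4, the effector of the integrated stress response, at a ratio of 0.962 (0.937 to 0.987), and NFE2L1, a regulator of proteasome genes, at 1.28 (1.25 to 1.32). The small MAF genes MAFF and MAFG had ratios of 0.862 (0.807 to 0.921) and 1.03 (0.967 to 1.10). JDP2, which encodes a repressor that dimerises with JUN proteins, had 542 and 803 counts (1.52, 1.36 to 1.69) and was picked out after its value was seen.

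Genes that act upstream of AP-1, the MAP kinases, their kinases and substrates, serum response factor and its cofactors, differed in both directions. Of 30 listed 29 were measured, with 11 intervals above 1 (37.9%), 8 below (27.6%), none past the size rule and a median of 0.07. Over the 19 with 1000 or more counts 36.8% lay above and 26.3% below, near the 37.2% and 27.6% of all genes as deep. SRF, which binds CArG boxes, had 2258 and 2763 counts and a ratio of 1.25 (1.18 to 1.32), and its partner ELK1 had 1.15 (1.10 to 1.20). MAP2K2, the kinase of ERK, had 1.13 (1.09 to 1.17) and RPS6KA1, a kinase activated by ERK, 1.07 (1.01 to 1.13). Chosen after their values were seen, the SRF cofactor gene MRTFA had a ratio of 1.54 (1.43 to 1.66), while the JNK genes MAPK8 and MAPK9 had 0.770 (0.690 to 0.860) and 0.806 (0.699 to 0.928). The third JNK gene, MAPK10, had 35 and 61 counts and lay on the other side of 1 at 1.78 (1.16 to 2.78).

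Known AP-1 targets had more intervals below 1 than above. They were listed from general knowledge, with earlier results of these data known, and not from binding data of these cells. Of 28 listed 23 were measured, all with 1000 or more counts, and 13 had intervals below 1 (56.5%) against 4 above (17.4%), with a median of -0.09. Of all genes as deep, 27.6% lay below and 37.2% above. MMP1, the interstitial collagenase whose promoter carries an AP-1 site, was the 1 gene that met the size rule, with 2251 and 881 counts (2.50-fold lower, 2.31 to 2.70). The osteopontin gene SPP1 stood at a ratio of 0.878 (0.865 to 0.891), the neutrophil chemokine gene CXCL8 0.671 (0.660 to 0.682) and the intermediate filament gene VIM 0.754 (0.738 to 0.769).

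Targets differed in both directions at high counts. Among values chosen after they were seen, CD44, a hyaluronan receptor gene, had 14034 and 8267 counts (0.603, 0.587 to 0.619), while TNC, which encodes the matrix protein tenascin-C, had 3732 and 6641 (1.82, 1.75 to 1.90). CCND1, which encodes cyclin D1, had a ratio of 0.712 (0.678 to 0.747) and the urokinase receptor gene PLAUR 0.735 (0.686 to 0.788). IL6 and TIMP1 were near 1, at 1.04 (0.999 to 1.08) and 1.004 (0.966 to 1.04). HBEGF belongs to both this list and that of other immediate early genes, at 0.978 (0.886 to 1.08).

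**Figure D5:**
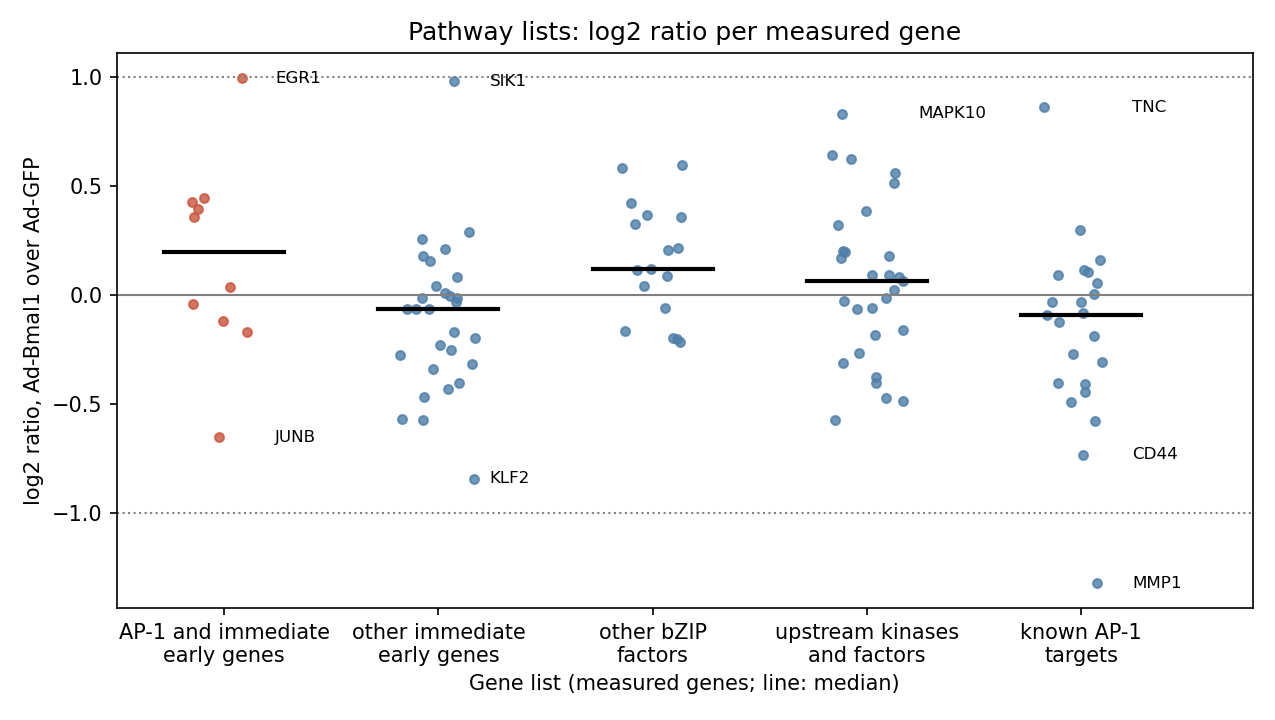
Log2 ratio, Ad-Bmal1 over Ad-GFP, of each measured gene in 5 lists, with the median as a black line, dotted lines at a 2-fold difference and points spread sideways for legibility. Medians run from -0.09 for known AP-1 targets to 0.20 for the AP-1 and immediate early genes, and MMP1 is the 1 point beyond a dotted line.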

How the data were processed

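RNA from HK-2 cells was sequenced as paired reads of 150 bp from polyadenylated RNA, per the labels' protocols, and sample titles gave the groups. The authors deposited whole-number counts per gene, with no sign of normalisation. The submitters' processing notes name HISAT2 as a tool and GRCh38 (hg38) as the build. How reads were counted, on which strand and with which annotation, is not given in the sources used here. Every per-sample column was used.

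Scaling was by TMM (edgeR 4.0.16, R 4.3.3, factors 1.01 for Ad-GFP and 0.988 for Ad-Bmal1). Other steps used Python 3.11.15, numpy 2.4.6, pandas 2.3.3, scipy 1.17.1 and statsmodels 0.14.6. With no residual degrees of freedom no test could be fitted and no p-value is given. Ratios have exact 95% conditional binomial (Clopper-Pearson) intervals, pair odds ratios exact conditional ones. Intervals reflect counting error alone, not variation between cultures, and without molecular identifiers reads may be copies of 1 molecule. The median transcript length stood in where a gene had none. The steps were tested on simulated counts.

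Symbols came from the gene name table (98.7% of identifiers) and positions and transcript lengths from GENCODE v29 (99.5%). The genes and lists were chosen with earlier results of these data known. The rule named all 10 genes, BMAL1, and from each list the genes past the size rule and the 4 with the highest mean count. Not all genes so named are reported here. Any further gene given was chosen after its value was seen. Alternatives were library totals, DESeq2 1.42.0 size factors, upper-quartile scaling, totals that left out mitochondrial genes and the 20 highest, thinning, length trend removal (lowess, span 0.3), other filters, and a 1.5-fold size. Filters on the mean and on both libraries were added after seeing the data.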

Additional observations from a re-analysis of the deposited data

How the results depend on the processing

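Of 60 recomputed ratios of the 10 genes, 6 alternatives each, 59 kept their direction and 1 did not, FOSL2, at 0.942 with the length trend removed. The 4 other scalings multiply every ratio by a common factor and thinning removed few counts, so they could hardly turn a direction. Only removal of the length trend acts on each gene apart. Of 139 recomputed counts, medians, family sums and shares, 125 stayed within 1.5 times the count, 0.1 on the log2 scale or the counting interval. The median over the AP-1 and immediate early genes was 0.0010 with a minimum of 10 CPM and with 1 CPM asked of both libraries, since both leave out FOS and EGR1. With the length trend removed 1 of these genes, EGR1, met the size rule. At a 1.5-fold size the number past the rule was 2 for the AP-1 and immediate early genes, 2 for other immediate early genes, 2 for other bZIP factors, 3 for upstream genes and 3 for AP-1 targets.

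The summed FOS ratio was 0.986 under library totals and 0.953 with the length trend removed, and the summed JUN ratio 0.839 and 0.880. From Ad-GFP to Ad-Bmal1 the FOSL2 share of the FOS pool went up by 1.44 percentage points by counts and 2.87 per kilobase. The JUNB share of the JUN pool fell by 7.85, and fell by 8.98 per kilobase. A per-kilobase share uses the same length in both libraries, so it does not address the length trend. With that trend removed FOSL1 and FOSL2 had ratios of 0.949 and 0.942, so FOSL2 did not gain on FOSL1. JUNB was then at 0.675 and JUN at 0.967. No paired analysis was possible because each group has 1 library. The sample labels carry no replicate numbers, and the numbers in the names of the count columns differ between the libraries and were not used. Depth limits FOS and EGR1, at 19 to 39 counts a library, while for the abundant genes the unknown variation between cultures is the limit.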
